A study of Mus musculus with 23 samples.

Results

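The fibroblast growth factor (FGF) receptor family was taken by gene symbol as the 5 mouse genes Fgfr1, Fgfr2, Fgfr3, Fgfr4, and Fgfrl1. All 5 were found among the 17644 genes with a TPM value, and 4 of them passed the filter on low counts and were among the 14364 genes tested. Fgfr4 did not pass it. RNA-Seq had been performed on tibia and femur from one hind limb of 23 female C57BL6/N mice at 11 weeks of age, after the epiphyses had been cut off and the marrow spun out. The study asked which bone transcripts change with type 1 diabetes (T1D) in WT mice and whether they also change in mice without Sarm1, an NAD-cleaving enzyme of axon degeneration. T1D mice had received repeated injections of streptozotocin (STZ), which destroys pancreatic β cells, each at 100 mg/kg, at 8 weeks of age. They had been diabetic for 3 weeks, and Control mice had received saline. There were 5 WT Control mice and 6 mice each of WT T1D, KO Control, and KO T1D, where KO marks the label of a global Sarm1 knockout, with 1 library per mouse.

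FGF receptors 1 to 4 are receptor tyrosine kinases that bind FGF ligands together with heparan sulfate or a Klotho protein and signal through the ERK, PI3K, and phospholipase C pathways. Fgfrl1 binds ligands and heparan sulfate but lacks the kinase domain. In bone, Fgfr1 and Fgfr2 are known for their roles in osteoblasts and their precursors, and Fgfr3 restrains growth plate chondrocytes and is also active in osteoblasts.

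On the GRCm38.p6 build, Fgfr1 lies at chr8:25518759-25575718 and Fgfr2 at chr7:130162451-130266808 on the minus strand. Fgfr3 (chr5:33721724-33737068), Fgfrl1 (chr5:108694229-108706950), and Fgfr4 (chr13:55152818-55168759) are on the plus strand, as is Fgfr1. Counts were given per gene, so the alternatively spliced isoforms of Fgfr1, Fgfr2, and Fgfr3, which differ in ligand preference, could not be separated. Fgfr1 overlaps the annotated long noncoding RNAs Gm31288 and Gm16159, which were listed with 0 counts in all libraries. Start site sequence from RefSeq was at hand for 4 of the 5 receptors, all but Fgfr1. The 250 bases before the start are shown for Fgfr2 and Fgfr3, whose CPM did not overlap between WT Control and WT T1D, and for Fgfrl1, whose CPM did. Every WT T1D mouse was below every WT Control mouse in 0.877% of genes tested, and in TPM the Fgfr3 groups overlapped. The bases are written 5′ to 3′ on the gene's own strand, and capitals mark GC boxes (GGGCGG or its reverse complement CCGCCC).

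Fgfr2, chr7:130266809-130267058, minus strand: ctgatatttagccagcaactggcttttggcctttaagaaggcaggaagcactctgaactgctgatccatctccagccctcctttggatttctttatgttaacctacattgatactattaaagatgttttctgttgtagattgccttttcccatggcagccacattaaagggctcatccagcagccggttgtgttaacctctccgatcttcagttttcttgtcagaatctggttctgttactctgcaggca

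Fgfr3, chr5:33721474-33721723, plus strand: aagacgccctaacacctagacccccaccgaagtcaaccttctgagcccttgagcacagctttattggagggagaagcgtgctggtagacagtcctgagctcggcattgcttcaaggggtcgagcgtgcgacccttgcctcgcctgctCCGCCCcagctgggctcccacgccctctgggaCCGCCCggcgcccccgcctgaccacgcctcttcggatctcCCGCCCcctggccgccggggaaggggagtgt

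Fgfrl1, chr5:108693979-108694228, plus strand: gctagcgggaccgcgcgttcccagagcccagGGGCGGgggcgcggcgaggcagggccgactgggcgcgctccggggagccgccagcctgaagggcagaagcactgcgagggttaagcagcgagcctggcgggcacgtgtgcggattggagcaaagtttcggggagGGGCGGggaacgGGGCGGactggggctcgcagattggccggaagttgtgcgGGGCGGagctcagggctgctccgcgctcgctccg

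The Fgfr2 window was 44% G and C with 2 CpG dinucleotides and held no GC box. The Fgfr3 window (66.8%, 19 CpG) held 3 GC boxes and the Fgfrl1 window (73.6%, 30 CpG) held 4. For Fgfr4, whose window is not shown, the values were 64% and 2 GC boxes. Among 32851 mouse windows of the same length, the median content of G and C was 52.4%, and 32.7% held a GC box on either strand. A RUNX core (TGTGGT, present in 14.05% of windows) or a TATA box (TATAAA, 12.4%) was found on neither strand in the windows of these 4 genes. These letters describe the reference sequence and say nothing of binding.

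Total counts ranged from 16938101 to 20135592 per library. Sarm1 itself received between 5 and 32 counts. WT Control had 15 to 32, WT T1D 6 to 21, KO Control 5 to 29, and KO T1D 15 to 28. The mean was 0.799 CPM in KO Control against 1.17 CPM in WT Control, and 1.19 CPM in KO T1D against 0.687 CPM in WT T1D. The ranges overlapped in both pairs, so at these low counts Sarm1 RNA did not separate the genotypes, and the genotype below is that of the label. The libraries of WT T1D mice A3905 and A3906 stood apart. The 10 osteoblast markers summed to 6095 and 4628 CPM in these libraries, against 52889 to 118098 CPM in the other 21, and their 14 erythroid markers summed to 239333 and 234566 CPM, the 2 highest values of the series. No marker of the lists was at 0 in every library. By the mouse IDs, 1 WT Control and 3 WT T1D mice belong to an A17 series, and all the rest to A36 to A39. Results are therefore also given without A3905 and A3906 and for the A36 to A39 series alone.

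Fgfr1 was the most abundant receptor transcript and Fgfr4 was barely detected. Levels are compared between genes as TPM, which is scaled to transcript length. In WT Control, the means were 84.5 ± 17.8 TPM (SD, n = 5) for Fgfr1, 23.04 ± 3.40 TPM for Fgfr2, 11.1 ± 1.62 TPM for Fgfrl1, 6.70 ± 1.54 TPM for Fgfr3, and 0.118 ± 0.115 TPM for Fgfr4. This order held in 22 of the 23 libraries, the exception being A3906, in which Fgfrl1 (10.2 TPM) exceeded Fgfr2 (9.71 TPM). Neighbours in the order overlapped in their ranges in 2 instances, Fgfr2 with Fgfrl1 in WT T1D and Fgfrl1 with Fgfr3 in KO Control, although Fgfrl1 was above Fgfr3 in every KO Control mouse. Among 42 receptor tyrosine kinases tested (Fgfrl1 not counted), Fgfr1 had the second highest mean TPM over all libraries (69.5), Fgfr2 ranked 5 (18.3), and Fgfr3 ranked 22 (5.12). Between 48.3% and 72.0% of the family's TPM in a library came from Fgfr1. The lowest of these shares was that of A3906.

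**Figure D1:**
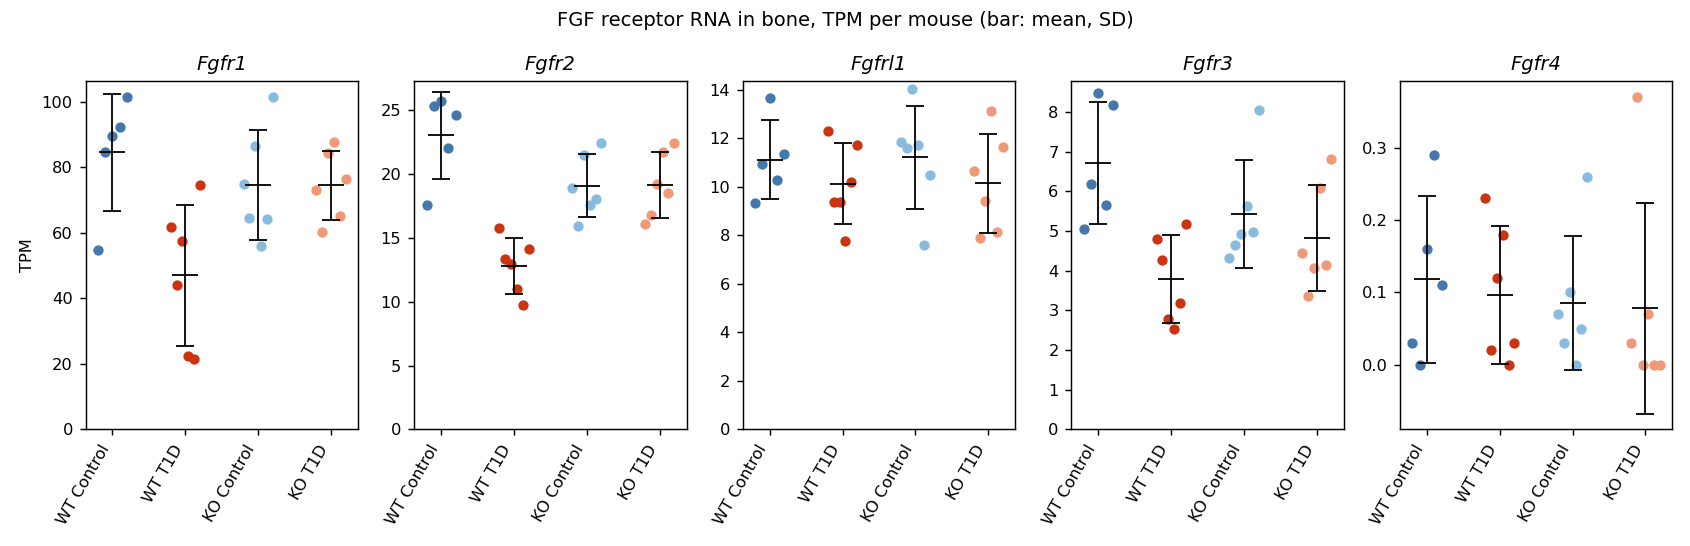
TPM of each FGF receptor gene (y axes, linear, 1 panel per gene) in each mouse of the 4 groups, with the group mean and SD as bars; KO is the label. Fgfr1, Fgfr2, and Fgfr3 have their lowest mean in WT T1D, Fgfrl1 has means from 10.1 to 11.2 TPM, and Fgfr4 stays at or below 0.37 TPM.

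The first question was how the receptors differed between WT T1D and WT Control. Fgfr2 RNA was lower in WT T1D and was the only receptor to pass the edgeR test, with Fgfr1 and Fgfr3 estimated lower by a similar amount but with a larger spread, and Fgfrl1 estimated slightly higher. DESeq2 called Fgfr2, Fgfr1, and Fgfr3 lower, in a fit that called 1002 of all 14364 genes in either direction, against 334 by edgeR. CPM, counts scaled to library size with TMM factors, are used for differences between groups.

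Fgfr2, the receptor known for osteoblast differentiation and skull suture disorders, had 66.4, 85.2, 83.0, 77.6, and 84.3 CPM in the WT Control mice A1757, A3767, A3903, A3904, and A3907. In WT T1D, its lowest, median, and highest values were 46.1, 54.3, and 60.7 CPM. All 6 WT T1D mice were below the lowest WT Control mouse, and this complete separation in the lower direction was seen in 0.877% of all genes tested. The log2 change was -0.57 (SE 0.096, 95% interval -0.76 to -0.37), by which its level fell by 32.4%, with an adjusted p of 0.0174 by edgeR, the fourth lowest unadjusted p of the 14364 genes (5.28e-06). In this comparison 0.828% of genes were called lower and 1.5% higher, and Fgfr2 was 1 of 4 receptors tested. Without A3905 and A3906, the log2 change of Fgfr2 was -0.52 and its edgeR adjusted p was 0.104, in a fit that called 0 genes at an adjusted p under 0.05. Its place by unadjusted p was then 8. Restricted to the A36 to A39 series, the fit gave -0.70 (edgeR adjusted p = 0.00571). There WT T1D had 3 mice, among them A3905 and A3906, and more genes were called than with all mice. The place of Fgfr2 by unadjusted p was 28 in that fit. Leaving out single WT Control mice, the adjusted p was over the threshold without A3767 (log2 change -0.54, edgeR adjusted p = 0.0593), A3903 (-0.55, 0.0503), or A3907 (-0.54, 0.0660).

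Fgfr1, the main receptor of osteoblast precursors and of FGF23 signalling with Klotho, had 185, 252, 260.1, 289, and 310.1 CPM in the same WT Control mice. Its lowest, median, and highest values in WT T1D were 91.4, 188, and 241 CPM. Only 3 of these 6 diabetic mice lay under the lowest WT Control value, and the lowest 2, at 99.2 and 91.4 CPM, were A3905 and A3906. The log2 change was -0.60 (SE 0.20, 95% interval -1.02 to -0.18) and did not pass the edgeR test (adjusted p = 0.0927). DESeq2 gave the same -0.60 with an adjusted p of 0.0426, and limma on log2 (TPM + 1) gave -0.95 with an adjusted p of 0.0133. On that TPM scale the median of all genes was itself shifted by -0.24 in WT T1D. The edgeR log2 change of Fgfr1 was -0.31 (adjusted p = 0.452) without A3905 and A3906. It was -0.94 (adjusted p = 0.0203) in the A36 to A39 series alone, where WT T1D had 3 mice and 2 of them were A3905 and A3906.

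Fgfr3, known as the brake on endochondral growth, had 15.4, 16.8, 22.2, 15.8, and 22.4 CPM in WT Control. Its WT T1D values were 9.58 (lowest), 12.9 (median), and 14.95 CPM (highest). In CPM the groups did not overlap, which in this direction was seen in 0.877% of genes tested. In TPM, the highest WT T1D mouse (5.17) was above the lowest WT Control mouse (5.04). The log2 change of -0.57 (SE 0.18, 95% interval -0.94 to -0.19) was as large as that of Fgfr2 with a wider error, and the edgeR adjusted p was 0.0793. DESeq2 gave -0.56 with an adjusted p of 0.0460, and limma on log2 (TPM + 1) gave -0.70 with an adjusted p of 0.0117, where the median of all genes was shifted by -0.24. Without A3905 and A3906 the edgeR log2 change of Fgfr3 was -0.48 (adjusted p = 0.388). The A36 to A39 series alone gave -0.64 (adjusted p = 0.0739). With 167 to 407 counts per library, Fgfr3 was counted less precisely than Fgfr1 (1581 to 5627) and Fgfr2 (797 to 1581).

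Fgfrl1, the receptor without a kinase, had a higher estimate in WT T1D on this scale. Its CPM was 17.1, 17.6, 21.6, 17.2, and 18.7 in WT Control and 18.0 (lowest), 19.7 (median), and 23.02 (highest) in WT T1D. The groups overlapped, and 2 of 6 WT T1D mice lay above every WT Control mouse, whereas 1.32% of genes had all 6 above. The log2 change was 0.12 (SE 0.14, 95% interval -0.17 to 0.41, edgeR adjusted p = 0.640). On log2 (TPM + 1), where the median of all genes was shifted by -0.24 in WT T1D, limma gave -0.13 for Fgfrl1 (adjusted p = 0.476).

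Fgfr4, best known as a bile acid regulator in liver, received 0 to 11 counts per library and had group means of 0.179 ± 0.176, 0.188 ± 0.178, 0.137 ± 0.134, and 0.136 ± 0.236 CPM (SD) in WT Control, WT T1D, KO Control, and KO T1D. In 6 libraries it had 0 counts, which allows up to 0.147 to 0.173 CPM at these depths if a count of 0 can hide 3 counts, for counting error only. A difference between the groups was not detectable at this depth.

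**Figure D2:**
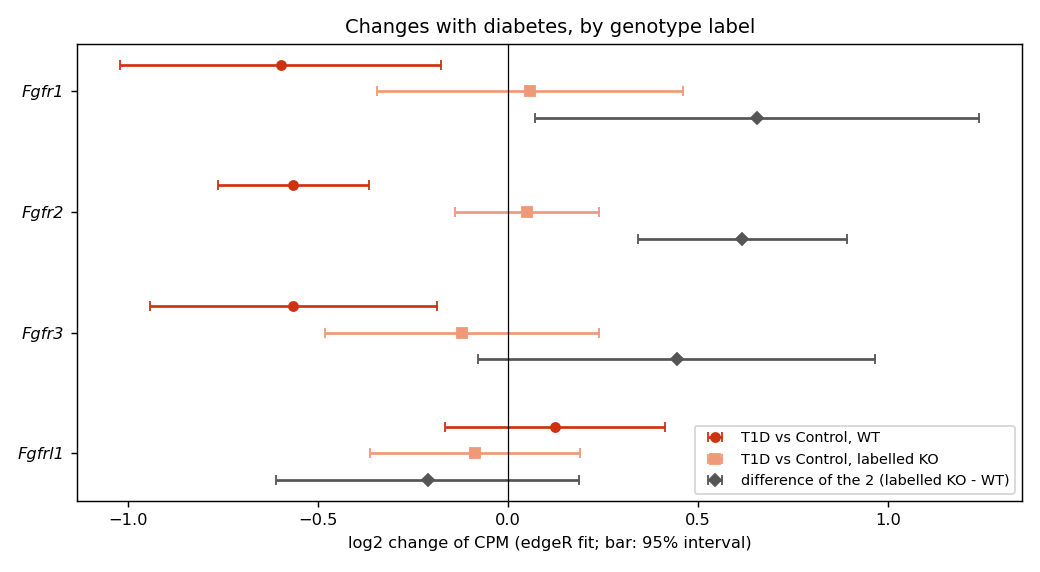
Log2 change of CPM with T1D (x axis) for the 4 tested receptors in WT mice, in mice labelled KO, and the difference between both, with 95% intervals from the edgeR fit. The WT intervals of Fgfr1, Fgfr2, and Fgfr3 lie below 0, those of the mice labelled KO span 0, and the difference for Fgfr2 runs from 0.34 to 0.89.

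In mice labelled Sarm1KO, the question was whether the same receptors differed with T1D. None was called, 0 of 14364 genes were called by edgeR (0% of genes) and 452 had an unadjusted p under 0.05 (3.15%), and DESeq2 also called 0. Fgfr2 had 53.9, 69.4, and 74.0 CPM (lowest, median, highest) in KO Control and 58.0, 68.6, and 84.0 CPM in KO T1D. These ranges overlapped, with no KO T1D mouse below the lowest KO Control mouse (0.167% of genes had all 6 below and 0.0905% all 6 above). The log2 change of Fgfr2 was 0.051 (SE 0.092, 95% interval -0.14 to 0.24). For Fgfr1, the CPM range was 195 to 297 in KO Control and 197 to 303 in KO T1D, a log2 change of 0.058 (95% interval -0.35 to 0.46). Fgfr3 gave -0.12 (-0.48 to 0.24) and Fgfrl1 -0.087 (-0.36 to 0.19). The intervals of Fgfr1, Fgfr2, and Fgfr3 did not include the WT estimate and that of Fgfrl1 did, which leaves the error of the WT estimate out of account. For each of the 4 genes the edgeR adjusted p was 0.999971. All 4 intervals held both decreases and increases, that of Fgfr1 being the widest, so a p over the threshold does not show that a level was the same.

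The difference between the 2 T1D changes was tested as the interaction term. Of all 14364 genes, Fgfr2 had the lowest unadjusted p (0.000115), with a log2 difference of 0.62 (SE 0.13, 95% interval 0.34 to 0.89), but its edgeR adjusted p was 0.479. This adjusted p was shared by Fgfr1, whose difference was 0.66 (SE 0.28, unadjusted p = 0.0293 by edgeR). No gene was called (0%), and 1467 had an unadjusted p under 0.05, or 10.2% of genes. Fgfr3 had a difference of 0.44 (SE 0.25, edgeR adjusted p = 0.534) and Fgfrl1 one of -0.21 (SE 0.19, edgeR adjusted p = 0.703). The likelihood ratio test of DESeq2 also placed Fgfr2 first, with a difference of 0.61 and an adjusted p of 0.150. Without A3905 and A3906 the edgeR difference for Fgfr2 was 0.57 (adjusted p = 0.926, place 4), and within the A36 to A39 mice it was 0.74 (adjusted p = 0.0729, place 14). For none of the 4 receptors did the difference in T1D change between genotype labels pass the threshold in these 4 fits.

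Comparing genotype labels directly, the nondiabetic mice labelled KO were already lower in Fgfr2 than WT Control mice by estimate. The log2 difference was -0.23 (SE 0.096, 95% interval -0.43 to -0.036, unadjusted p = 0.0226, edgeR adjusted p = 0.999), and all 6 KO Control mice were below the WT Control mean while 2 were below every WT Control mouse (all 6 were in 0.292% of genes). The other 3 receptors had log2 differences of -0.14 (Fgfr1), -0.27 (Fgfr3), and 0.043 (Fgfrl1), none of which passed (0.0278% of genes were called). Among diabetic mice, Fgfr2 was higher in KO T1D than in WT T1D by 0.38 (SE 0.092, edgeR adjusted p = 0.0785), and 5 of 6 KO T1D mice were above every WT T1D mouse (all 6 were in 0.453% of genes). DESeq2 gave 0.37 with an adjusted p of 0.0225, and edgeR in the A36 to A39 series gave 0.46 with 0.0185. It was 0.33 (edgeR adjusted p = 0.510) without A3905 and A3906. For Fgfr1 the difference was 0.51 (SE 0.20, edgeR adjusted p = 0.209) and 3 of 6 KO T1D mice were above every WT T1D mouse, and for Fgfr3 and Fgfrl1 it was 0.18 and -0.17. In the A36 to A39 series Fgfr1 passed with 0.76 (edgeR adjusted p = 0.0436), limma on log2 (TPM + 1) gave it 0.79 (adjusted p = 0.0494), and without A3905 and A3906 it was 0.22 (edgeR adjusted p = 0.799). On that TPM scale the median of all genes was shifted by 0.17 between T1D groups. The edgeR fit of all mice called 0.0905% of genes between T1D groups, whereas DESeq2 called 239 and the A36 to A39 fit 1538 of the 14364 genes. The interaction estimate thus combined a lower Fgfr2 estimate in KO Control and a higher one in KO T1D, each against WT. Neither of these passed edgeR in the fit of all mice.

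The balance between receptors within a library does not depend on how the library was scaled, but their summed TPM does. On log2 (TPM + 1), the median of all genes was shifted by -0.24 in WT T1D. The family's summed TPM was 86.5 to 146 in WT Control and 43.9 to 106 in WT T1D. In KO Control it was 90.9 to 143, and in KO T1D 88.8 to 129. Fgfr1 made up 67.0 ± 3.14% of the family's TPM in WT Control and 61.1 ± 9.41% in WT T1D (SD), where it was 51.1% in A3905, 48.3% in A3906, and 62.1 to 70.6% in the other 4 mice. Fgfrl1 made up 8.99% and 14.8%. The log2 ratio of Fgfrl1 to Fgfr1 was -2.91 ± 0.27 in WT Control and -2.08 ± 0.64 in WT T1D. This difference of 0.83 had a p of 0.0173 by a two-sided exact permutation test over 462 splits, but a Benjamini-Hochberg adjusted p of 0.104 over the 6 ratio comparisons. The ratio was highest in A3905 (-1.53) and A3906 (-1.08), and without them the difference was 0.45 (exact permutation p = 0.0556). Log2 ratios of Fgfr2 and Fgfr3 to Fgfr1 differed by 0.12 and 0.13 with T1D in WT mice, and the 3 ratios differed by -0.20 to -0.012 in mice labelled KO (exact permutation p from 0.277 to 0.931 for these 5). Both WT differences turned to the other sign without A3905 and A3906, -0.20 for Fgfr2 and -0.16 for Fgfr3.

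Osteoblast markers were also lower in WT T1D, and in bulk bone fewer cells of a type and less RNA per cell cannot be told apart. The 10 osteoblast markers summed to 60689 to 118098 CPM in WT Control and 4628 to 85290 CPM in WT T1D, and 2 of the 10 were called lower by edgeR and 3 by DESeq2, with a median log2 change of -0.77. Their sums were 52889 to 106891 CPM in KO Control and 70299 to 105990 CPM in KO T1D. The 10 chondrocyte markers summed to 870 to 1959 CPM in WT Control and 201 to 1151 CPM in WT T1D (9 tested, 0 called lower by edgeR, 6 of them at an unadjusted p under 0.05, and 1 by DESeq2, median log2 change -1.66), and the 14 erythroid markers to 98700 to 144413 and 127456 to 239333 CPM (6 called higher by edgeR and 12 by DESeq2, median log2 change 0.62). In KO Control and KO T1D, the chondrocyte sums were 499 to 1067 and 459.8 to 1034 CPM and the erythroid sums 81645 to 166484 and 109920 to 154127 CPM. Among all 14364 genes, edgeR called 119 lower and 215 higher in WT T1D, and DESeq2 called 1002 in either direction. In A3905 and A3906, Fgfr1 was at 99.2 and 91.4 CPM against 163 to 310.1 CPM in the other 21 libraries. Fgfr2 was at 54.0 CPM in A3905, within the 51.1 to 60.7 CPM of the 4 other WT T1D mice. In A3906 it was at 46.1 CPM, the lowest Fgfr2 value of all libraries. In TPM, Fgfr2 was at 10.99 in A3905 and 9.71 in A3906, below the 12.94 to 15.78 of the 4 others. The osteoblast markers of these 4 others summed to 62413 to 85290 CPM. When the mean log2 CPM of the osteoblast markers was added to the edgeR fit as a covariate, the WT change of Fgfr1 was -0.12 (adjusted p = 0.850), that of Fgfr2 -0.45 (adjusted p = 0.278), that of Fgfr3 -0.38 (adjusted p = 0.703), and that of Fgfrl1 0.13 (adjusted p = 0.915). With the erythroid markers as the covariate, these values were -0.020, -0.47, -0.34, and 0.049, and no gene was called in either fit. Both scores differ between the groups themselves, so a covariate takes up part of the T1D difference, and the part of cell makeup in the receptor changes was not tested.

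**Figure D3:**
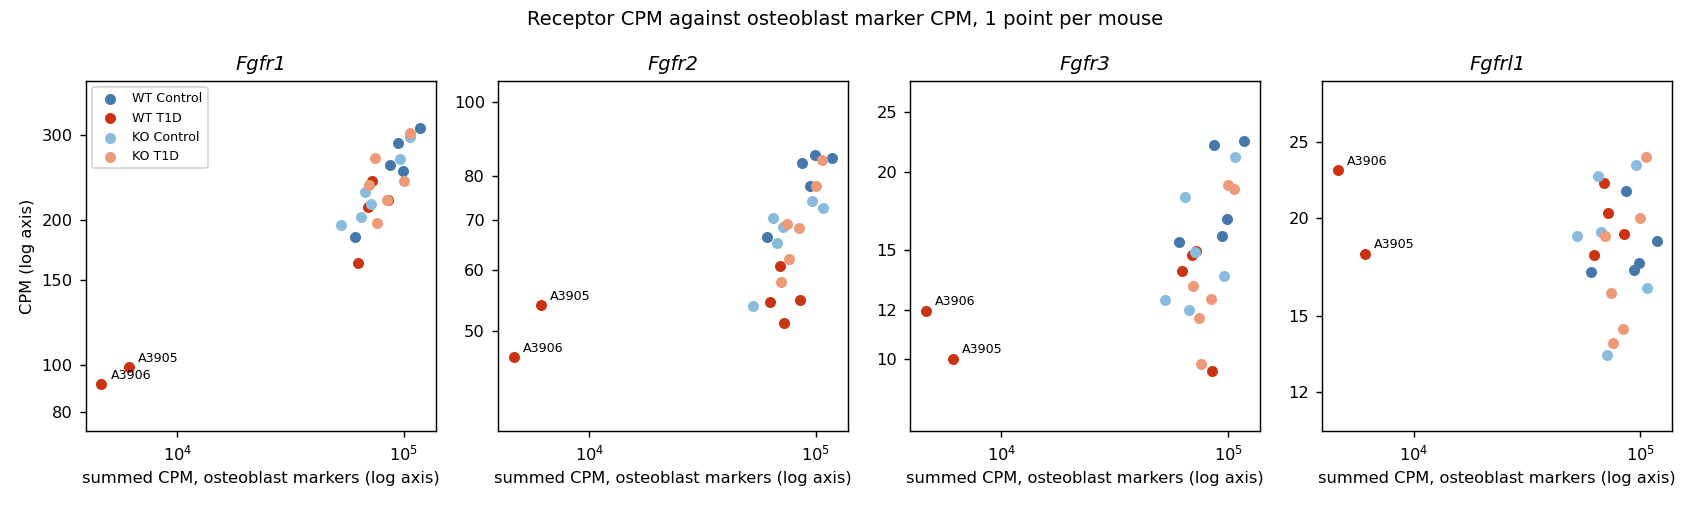
CPM of each tested receptor (y axes, log) against the summed CPM of 10 osteoblast markers (x axis, log) in 23 mice, colored by group; KO is the label. In A3905 and A3906, Fgfr1 is lowest along with the markers. Fgfr2 in A3905 is within the range of the other WT T1D mice, and in A3906 it is the lowest of all mice.

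The genes most like each receptor were those with the highest Pearson r of log2 (CPM + 0.5) over the 23 libraries, among tested genes with a mean of at least 1 CPM. These are descriptions over libraries that share groups, cell makeup, and scaling. For Fgfr1 they were Kdelr2 (r = 0.974), Dpysl3, Fkbp10, a chaperone of collagen folding, Sp7 (r = 0.968), the osteoblast transcription factor osterix, and Phldb1. Without A3905 and A3906, r was 0.907 for Kdelr2 and 0.911 for Sp7. Sp7 itself, an osteoblast marker, had 148 to 245 CPM in WT Control and 30.7 to 192 CPM in WT T1D. Fgfr2 was most like Srgap1 (r = 0.870), H2afy2, Daam2, Rnf144b, and Slc39a7 (r = 0.828). Of these, Srgap1 and Rnf144b were called lower in WT T1D by edgeR (log2 change -0.72 and -0.61, adjusted p = 0.0451 and 0.0367), as were 0.828% of all genes. Because r was taken across groups, genes picked by it tend to share the group difference of Fgfr2. Around the group means, r with Fgfr2 was 0.747 for Srgap1 and 0.660 for Rnf144b. For Fgfr3 the first were Myo1e (r = 0.833) and Spon2, and Spred3, an inhibitor of ERK signalling, was among the 5 (r = 0.819). The values of r were lowest for Fgfrl1, with Trabd2b first (r = 0.700) and Spry4, another FGF feedback inhibitor, also listed (r = 0.620). Between the receptors, r was 0.731 for Fgfr1 with Fgfr2, 0.697 for Fgfr2 with Fgfr3, and 0.546 for Fgfr1 with Fgfr3, and -0.045 for Fgfr1 with Fgfrl1. Measured around the group means, the first 3 were 0.543, 0.584, and 0.419.

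The rest of the pathway was described from lists of ligands, co-receptors, signalling genes, feedback inhibitors, and other receptor kinases. Of 122 tested genes besides the receptors, 79 had a WT log2 change below 0, against 51.9% of all genes tested. The median of the 122 was -0.092, in a comparison that called 2.33% of all genes in either direction. By edgeR, 0 of the 122 were called in mice labelled KO, where 4 had an unadjusted p under 0.05, and 0 for the interaction, where 11 did, and DESeq2 called 0 of all genes in both comparisons. Among the ligands, 4 of 15 locally acting FGFs passed the filter (Fgf1, Fgf3, Fgf7, and Fgf18), with WT log2 changes from -0.23 to 0.28, of which edgeR and DESeq2 called 0 and edgeR gave 0 an unadjusted p under 0.05. Fgf1 and Fgf7 were the most abundant of them, with 7.31 ± 1.73 and 3.57 ± 0.537 TPM (SD) in WT Control. The bone hormone FGF23, which lowers renal phosphate reabsorption through Fgfr1 and Klotho, had 0.451 to 1.31 CPM in WT Control and 0.338 to 9.31 CPM in WT T1D. Its highest values, 7.81 and 9.31 CPM, were those of A3905 and A3906, and the other 4 WT T1D mice had 0.338 to 1.31 CPM. The log2 change of Fgf23 was 2.13 (SE 0.65, edgeR adjusted p = 0.0663) with these mice and 0.13 (adjusted p = 0.948) without them. DESeq2 called it higher with all mice (2.15, adjusted p = 0.0132). Kl, which encodes the Klotho co-receptor of FGF23, did not pass the filter, with 0 to 22 counts per library.

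Heparan sulfate proteoglycans present FGFs to their receptors. Of 13 co-receptor genes, 10 were tested and 9 had a WT log2 change below 0, with a median of -0.32 against -0.011 for all genes. Of all genes tested, 51.9% were below 0. By edgeR 0 of the 10 were called and 6 were lower at an unadjusted p under 0.05, as were 11.2% of all genes. DESeq2 called 1 of the 10 lower. The A36 to A39 fit, with A3905 and A3906 among its 3 WT T1D mice, called 5 lower. Among all 14364 genes, DESeq2 called 1002 in either direction and the A36 to A39 fit 2205. Of the 10, 8 were below 0 without A3905 and A3906, with a median of -0.21. Perlecan (Hspg2) had 28.6 TPM in WT Control and 15.5 TPM in WT T1D (log2 change of CPM -0.64, SE 0.22, edgeR adjusted p = 0.104). For the syndecans Sdc2 and Sdc3 the log2 change was -0.51 and -0.46, and for glypican Gpc1 it was -0.39 (edgeR adjusted p = 0.107, 0.167, and 0.170). The 12 enzymes that make or trim heparan sulfate had a median of 0.064 with 0 called by edgeR or DESeq2 and 2 at an unadjusted edgeR p under 0.05, and the sulfotransferase gene Hs6st1 had 0.40 (SE 0.14, edgeR adjusted p = 0.0895). Of 6 modulators, 0 were called by edgeR, where 3 had an unadjusted p under 0.05, and 1 was called lower by DESeq2. N-cadherin (Cdh2), which binds FGF receptors, had -0.80 (SE 0.33, edgeR adjusted p = 0.157) with all mice and -0.36 without A3905 and A3906.

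Inside the cell, DESeq2 and edgeR each called 0 of the adaptors, feedback inhibitors, and ERK-linked genes in WT mice, and edgeR gave an unadjusted p under 0.05 for 3, 2, and 1 of them. The 14 adaptors had a median WT log2 change of -0.0024, with Grb2 at -0.044 and Shc1 at 0.0097. The 16 genes of the kinase cascade had a median of 0.029, with 7 below 0 and 9 above. Mapk3 and Map2k2, kinases of the ERK pathway, had log2 changes of 0.090 and 0.11. The 8 feedback inhibitors had a median of -0.056, and Dusp6, a phosphatase induced by ERK signalling, had -0.25 (SE 0.097, edgeR adjusted p = 0.128). The 10 genes linked to ERK output had a median of -0.18, with 7 below 0, and with Egr1 at -0.090, Myc at 0.094, and Ier3 at 0.67 (SE 0.24, edgeR adjusted p = 0.107).

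**Figure D4:**
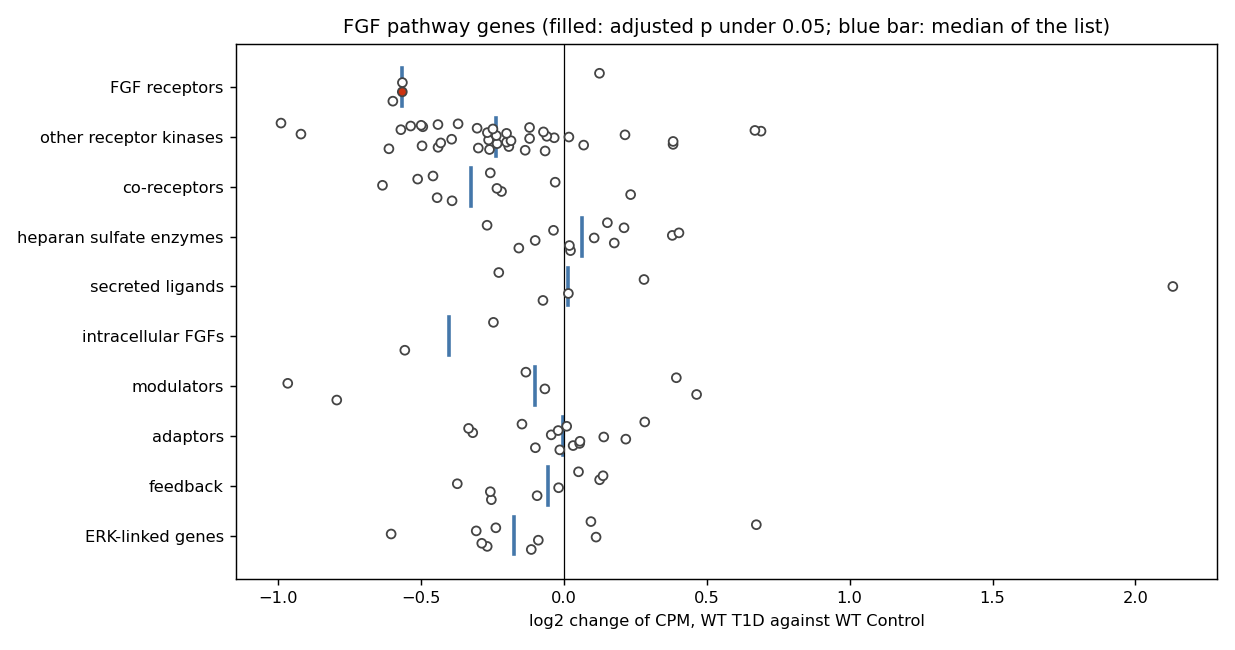
Log2 change of CPM in WT T1D against WT Control (x axis) for the tested genes of the FGF pathway lists, the kinase cascade left out, and of the other receptor kinases, 1 point per gene, with the median of each list as a blue bar. The filled point is Fgfr2, and the point furthest to the right is Fgf23 at 2.13.

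Other receptor tyrosine kinases were used to see whether Fgfr2 stood out among genes of its kind. Of 39 tested, 32 had a WT log2 change below 0 with a median of -0.24, 10 had an unadjusted p under 0.05 by edgeR and 9 of these were lower, against 22.2% and 11.2% of all genes, and 0 were called. DESeq2 called 3 of the 39 lower, and edgeR 7 in the A36 to A39 series. These 2 fits called 1002 and 2205 of all 14364 genes in either direction. Fgfr2 had the lowest p of the 42 kinases with the FGF receptors included, followed by Tek, the angiopoietin receptor of endothelium (log2 change -0.44, SE 0.12, edgeR adjusted p = 0.0524), and Ryk, a Wnt receptor (-0.50, SE 0.15, adjusted p = 0.0613). Tek, Tyro3, Ltk, and Ddr2 were chosen for mention after their values were seen. By size of the log2 change, Fgfr1, Fgfr2, and Fgfr3 ranked 4, 6, and 7 from the lowest, and the 3 kinases below Fgfr1 were Tyro3 (-0.99, SE 0.41), Ltk (-0.92, SE 0.54), and Ddr2 (-0.61, SE 0.29), none of them called by edgeR. The abundant kinases Csf1r and Axl, with 112 and 73.2 TPM in WT Control, had log2 changes of -0.14 and -0.066. Whether the change of Fgfr2 differed from that of other kinases was not tested.

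**Figure D5:**
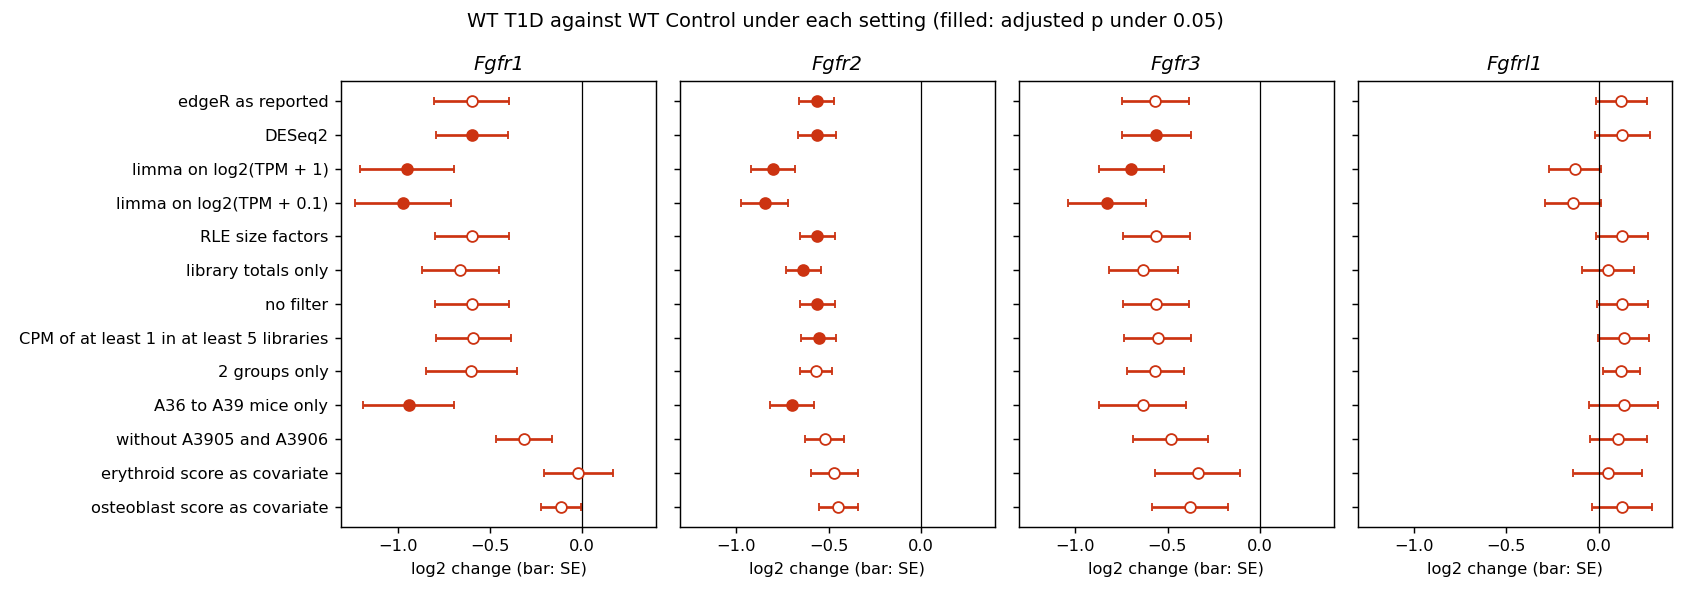
Log2 change in WT T1D against WT Control (x axis, SE as bars) of each tested receptor under 13 settings of the analysis, filled where the adjusted p was under 0.05. Fgfr2 lies between -0.85 and -0.45 throughout, Fgfr1 between -0.97 and -0.020, and Fgfrl1 is below 0 only on the TPM scale.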

How the data were processed

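Bulk RNA-Seq was performed on poly(A) RNA from marrow-depleted tibia and femur of 23 mice, with strand-specific libraries sequenced as paired 100 bp reads. The authors' provider aligned reads to GRCm38.p6 (HISAT and Bowtie2, versions not given in the sources used here). The deposited expected counts per gene came from RSEM and had been rounded to whole numbers, and the deposited TPM values came from the same reads. Groups were taken from the sample labels. The 14364 genes that reached 10 counts in 5 or more libraries were fitted with edgeR 4.0.16 (R 4.3.3) by the quasi-likelihood test over all 4 groups after TMM scaling, with Benjamini-Hochberg adjustment over all genes and a threshold of 0.05. DESeq2 1.42.0, limma 3.58.1 on log2 (TPM + 1) and log2 (TPM + 0.1), other scalings and filters, subsets of mice, and marker scores as covariates were alternatives. TPM ratios were compared by exact permutation (scipy 1.17.1). The fits were tested on simulated data. Total counts of 16938101 to 20135592 per library set the counting precision only, and the labels give 1 mouse per library. The SE of the WT log2 change was 0.20 for Fgfr1 and 0.096 for Fgfr2, although Fgfr1 had more counts. Genes named were the receptors, any gene of a pathway list called in 1 of the 5 contrasts together with the 4 of highest mean TPM in each list, and the 5 genes most like each receptor, and others are marked where named. The receptors, lists, and tests were chosen with earlier results of these data known. The result for 1 gene of the lists is not reported here.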

Additional observations from a re-analysis of the deposited data

Results flagged for a closer look

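Fgfr4 in KO T1D mouse A3682 was far from the other mice of its group, with 0.600 CPM (11 counts) against 0 to 0.162 CPM in the other 5. It was the only value set apart in this way among the 20 sets of receptor values examined (5 receptors in 4 groups), and chance sets apart about 1 in 20.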

How the results depend on the processing

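Among the tests of the 4 receptors outside the leave-one-out fits, 216 kept their direction and side of the threshold, 14 passed it in addition, 4 no longer passed it, and 2 changed sign. The WT decrease of Fgfr2 lost its call with both WT groups fitted alone (-0.57), without A3905 and A3906 (-0.52), and with erythroid (-0.47) or osteoblast (-0.45) scores as covariates. Fgfr1 was also called lower in WT T1D by DESeq2 (-0.60), by limma on log2 (TPM + 1) and log2 (TPM + 0.1) (-0.95 and -0.97), and in A36 to A39 mice (-0.94), and Fgfr3 by DESeq2 (-0.56) and limma (-0.70 and -0.83). Fgfrl1 changed sign with limma (-0.13 and -0.14). Between T1D groups, Fgfr2 was called by DESeq2 (0.37), limma (0.55 and 0.58), and in A36 to A39 mice (0.46), and Fgfr1 by limma (0.79 and 0.81) and in these mice (0.76). On the 2 TPM scales used with limma, the median of all genes was shifted by -0.24 and -0.29 in WT T1D. Between T1D groups it was shifted by 0.17 and 0.21. Without A3905 and A3906, WT log2 ratios to Fgfr1 differed by -0.20 (Fgfr2), -0.16 (Fgfr3), and 0.45 (Fgfrl1). The cause was not tested.

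In WT mice 334 genes were called, against 1002 by DESeq2, 5154 and 5173 by limma, 88 with no filter, 2205 in A36 to A39 mice, and 0 with 2 groups only, without A3905 and A3906, or with either covariate. Between T1D groups 13 were called, against 239 by DESeq2, 1166 and 1185 by limma, 1538 in A36 to A39 mice, 3 with no filter, 4 with 2 groups only or without A3905 and A3906, and 5 with RLE, a CPM filter, or either covariate. The interaction count was 0, and 2 with limma on log2 (TPM + 1).

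Leaving out 1 mouse at a time, WT changes ranged from -0.62 to -0.52 (Fgfr2), -0.72 to -0.46 (Fgfr1), and -0.62 to -0.48 (Fgfr3), the latter pair called without A3909. Changes in mice labelled KO ranged from -0.018 to 0.14 (Fgfr1) and -0.015 to 0.099 (Fgfr2), and Fgfrl1 between Control groups from -0.025 to 0.13. Calls ranged from 0 to 1264 (WT), 3 to 95 (between T1D groups), and 0 to 1 (labelled KO). Ratios to Fgfr1 ranged from -0.021 to 0.25 (Fgfr2, WT), -0.059 to 0.043 (Fgfr2, labelled KO), -0.028 to 0.29 (Fgfr3, WT), and 0.63 to 0.95 (Fgfrl1, WT). No paired analysis was possible because the labels identify each mouse by its own number. Depth limited Fgfr4 most, with 0 to 11 counts per library.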
